A study of Mus musculus with 9 samples.

Results

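The 58 genes described here encode membrane transporters of the SLC1, SLC6, SLC7, SLC36, SLC38 and SLC43 families, most of which carry amino acids. They were chosen from array features with 1 gene symbol that starts with one of these 6 family names followed by a number, with 1 feature per gene, out of 22180 genes tested. The cystine carrier gene Slc7a11 was left out, as were 3 genes whose symbols end in "os" (Slc6a19os, Slc7a6os and Slc36a1os), which do not encode these carriers. Slc6a9 shared its feature with another gene and was not used here.

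The cells were TAMH, an immortal hepatocyte line from mice that carry a transforming growth factor alpha transgene. All 3 groups were exposed for 9 h as confluent dishes, either to diquat (DQ) at 18 µM, to paraquat (PQ) at 126 µM or to medium alone (control), and each group held 3 Affymetrix Mouse Gene 2.1 ST arrays. The medium of every group held dexamethasone, nicotinamide, gentamicin, insulin, transferrin and selenium. Diquat and paraquat are bipyridylium herbicides, also called viologens, that accept an electron in cells and pass it to oxygen. In diquat an ethylene bridge joins both ring nitrogens, whereas in paraquat each ring nitrogen carries a methyl group. Their concentrations differed here.

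Amino acid carriers work in layers. Sodium-coupled carriers such as SLC38 (SNAT) proteins load cells with small neutral amino acids. Exchangers of the SLC7 family trade these for essential ones, some of them only in a heterodimer with the heavy chain encoded by Slc3a2 or Slc3a1. Several carrier genes are textbook targets of ATF4, a transcription factor made when amino acids run short or cells are otherwise stressed. Hepatocytes use SNAT carriers to take up alanine and glutamine for gluconeogenesis and the urea cycle.

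Values are log2 expression levels as deposited, so a difference of 1 is a 2-fold change. They ran from 3.89 to 13.19 over all features, and no 2 arrays were identical. Diquat replicate 3 lay farthest from its group mates, with a root-mean-square difference of 0.134 over all genes, against 0.0714 to 0.115 for the other arrays. Of 9 measured hepatocyte markers 8 lay above 6.418, the median level of all genes, among them albumin (Alb) with a mean of 12.73, and Asgr1 lay below it at 5.65. Of the markers of other liver cells, 0 of 4 endothelial, 2 of 5 macrophage, 2 of 6 stellate and 4 of 4 cholangiocyte genes lay above that level.

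Among the 58 carriers, diquat raised 8 and lowered 4 at an adjusted p below 0.05 in limma. The background was 7.02% of all genes called, 4.13% higher and 2.89% lower, against 20.7% of the carriers. Paraquat raised 6 and lowered 3, which is 15.5% of the carriers, while 4.57% of all genes were called, 2.33% higher and 2.24% lower. Both comparisons used the same control arrays. Without control replicate 1, 2 or 3 the diquat count was 7, 6 and 7, and without diquat replicate 3 it was 7. With each array centred on its median the diquat split was 8 higher and 2 lower. The median log2 change of the 58 carriers was -0.06 with diquat and 0.00 with paraquat, beside -0.02 and 0.00 for all genes. With diquat it was 0.01 for the 26 carriers above the median level of all genes and -0.06 for the 32 at or below it. Within families the range differed, and with diquat it ran from -0.72 to -0.02 for the 19 SLC6 members and from -1.24 to 0.26 for the 11 SLC38 members.

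**Figure D1:**
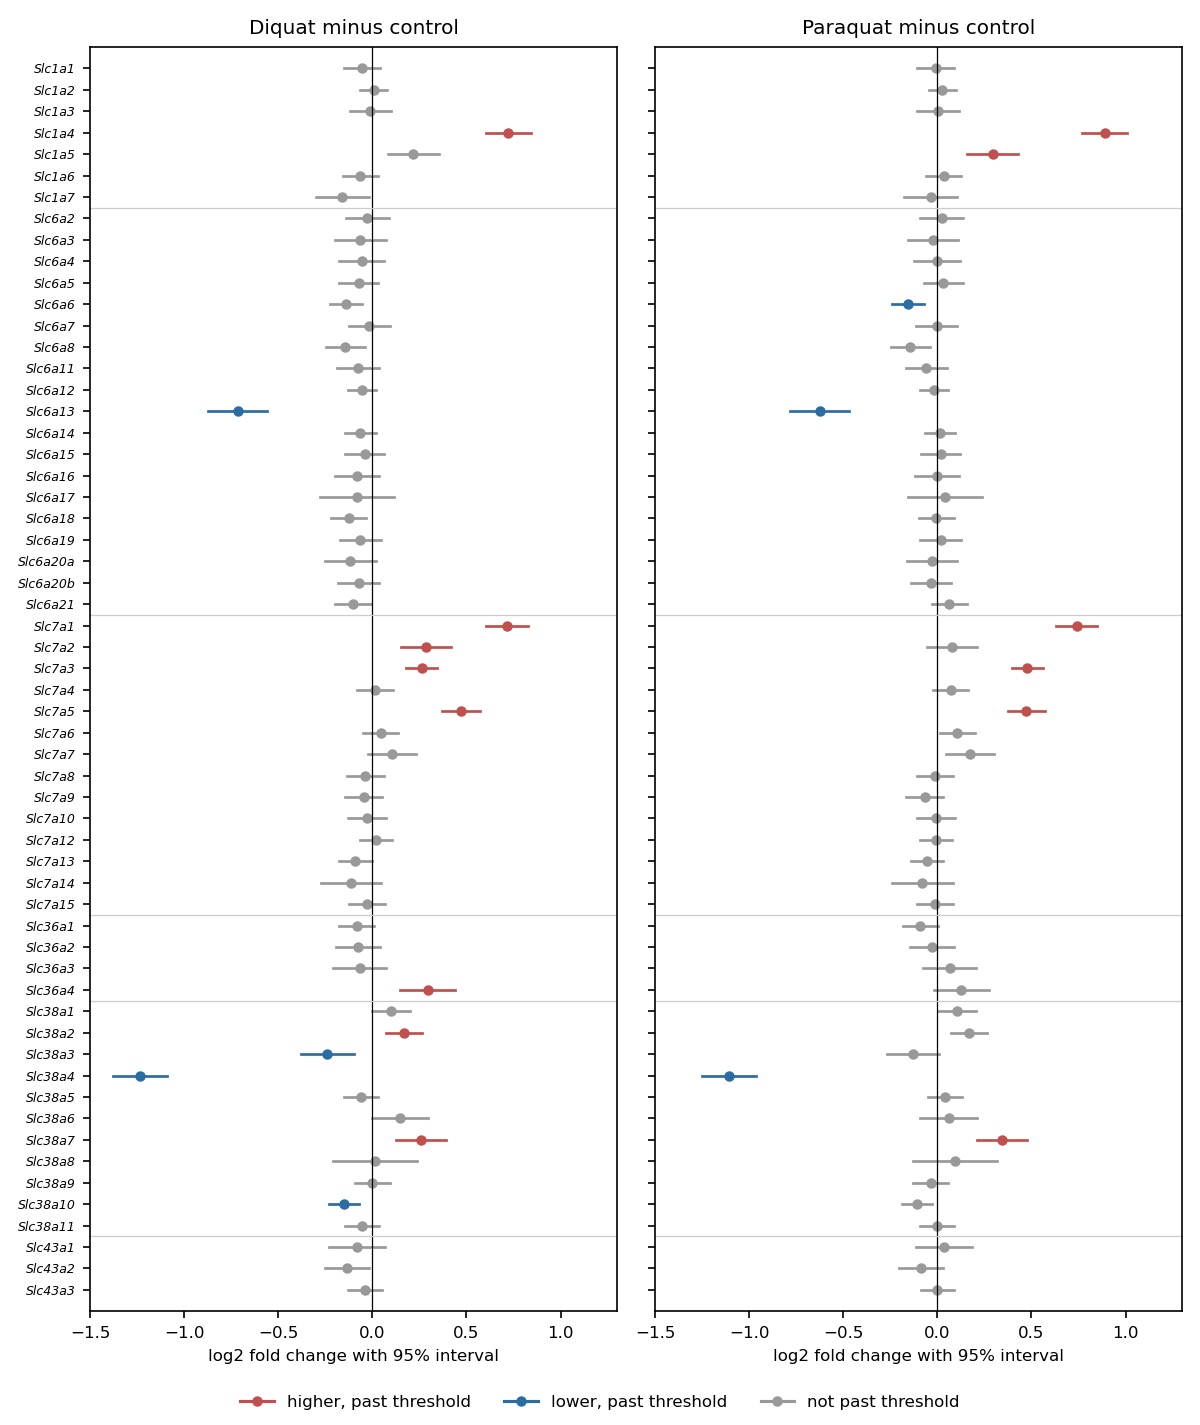
Log2 fold change (x axis) with its 95% interval for each of the 58 carrier genes (rows, by family), for diquat minus control on the left and paraquat minus control on the right. Red marks genes higher and blue genes lower past the threshold, and the 14 coloured genes include Slc38a4 at -1.24 with diquat and -1.11 with paraquat.

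The calls followed signal level. Of the 58 genes, 32 had a mean at or below 6.418, and 1 of them, Slc7a3, passed with each compound. Of all genes at these levels, 0.911% were called with diquat and 0.505% with paraquat. Without detection calls a low signal cannot be told from background, and this median level of all genes is not a detection limit. Above that level 11 of 26 passed with diquat, beside 13.1% of all genes there, and 8 of 26 with paraquat, beside 8.64%. The 5 glutamate carriers of the SLC1 family and the 3 monoamine carriers were among the 32.

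**Figure D2:**
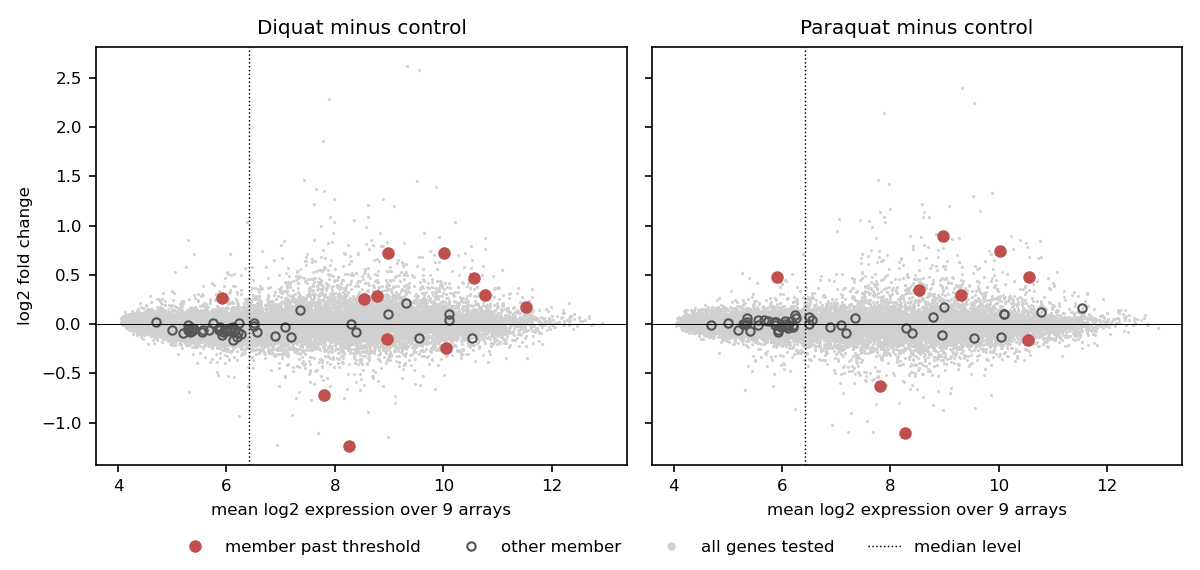
Log2 fold change (y axis) against mean log2 expression over the 9 arrays (x axis) for diquat minus control on the left and paraquat minus control on the right, with all 22180 genes in grey. Filled red points are carriers past the threshold, open points are the other carriers, and the dotted line is the median level of 6.418, above which all called carriers except Slc7a3 lie.

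Promoters are shown first for carriers with large changes, Slc1a4 and Slc7a1, which rose, and Slc38a4 and Slc6a13, which fell, and for Slc7a7, added after its values were seen because it holds the same 9 letters as Slc1a4. Each runs 5′ to 3′ on the gene's strand from 250 bases before the annotated start to 50 after it, from RefSeq on build GRCm38.p6. Capitals mark matches to the C/EBP-ATF response element TGATGNAAN, to which ATF4 binds, or to TGACNNNGC, the core of the antioxidant response element, on either strand.
Slc1a4, chr11:20332664-20332963, minus strand: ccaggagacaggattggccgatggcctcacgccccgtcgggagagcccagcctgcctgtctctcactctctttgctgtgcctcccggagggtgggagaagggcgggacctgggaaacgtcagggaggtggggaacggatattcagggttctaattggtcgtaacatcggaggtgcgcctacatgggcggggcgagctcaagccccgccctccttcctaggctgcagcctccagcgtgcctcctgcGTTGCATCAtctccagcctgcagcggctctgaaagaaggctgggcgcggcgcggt
Slc7a1, chr5:148399855-148400154, minus strand: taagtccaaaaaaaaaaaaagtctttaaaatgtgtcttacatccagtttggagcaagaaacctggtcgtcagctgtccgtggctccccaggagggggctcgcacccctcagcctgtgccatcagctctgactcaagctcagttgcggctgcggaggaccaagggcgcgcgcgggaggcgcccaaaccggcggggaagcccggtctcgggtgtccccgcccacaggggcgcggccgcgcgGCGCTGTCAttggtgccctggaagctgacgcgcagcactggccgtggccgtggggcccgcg
Slc38a4, chr15:97055907-97056206, minus strand: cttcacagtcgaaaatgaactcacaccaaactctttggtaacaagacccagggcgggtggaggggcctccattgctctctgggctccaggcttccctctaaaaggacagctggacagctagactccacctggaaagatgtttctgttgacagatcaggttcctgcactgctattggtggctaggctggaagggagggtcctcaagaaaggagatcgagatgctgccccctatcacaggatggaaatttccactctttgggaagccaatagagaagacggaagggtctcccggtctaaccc
Slc6a13, chr6:121300038-121300337, plus strand: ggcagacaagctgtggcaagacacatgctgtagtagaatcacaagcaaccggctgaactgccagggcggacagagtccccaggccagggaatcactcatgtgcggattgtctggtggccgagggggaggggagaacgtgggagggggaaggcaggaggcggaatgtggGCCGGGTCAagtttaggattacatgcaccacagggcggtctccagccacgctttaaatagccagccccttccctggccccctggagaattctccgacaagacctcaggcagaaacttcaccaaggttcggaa
Slc7a7, chr14:54417895-54418194, minus strand: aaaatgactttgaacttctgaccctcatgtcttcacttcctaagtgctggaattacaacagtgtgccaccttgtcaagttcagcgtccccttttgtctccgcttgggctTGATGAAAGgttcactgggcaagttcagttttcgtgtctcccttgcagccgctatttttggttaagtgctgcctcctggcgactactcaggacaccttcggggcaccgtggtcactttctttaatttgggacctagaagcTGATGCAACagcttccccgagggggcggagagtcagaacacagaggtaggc

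In Slc1a4 the capitals read TGATGCAAC on the opposite strand and begin at position -5 from the annotated start. The Slc7a7 window holds the same 9 letters on the gene's strand, beginning at position -1, and another match, TGATGAAAG, at position -141. That window is 1 of 5 for Slc7a7 in the table. For every gene with several starts, the window with the most matches was chosen to be shown. The Slc7a1 window was thus picked from 2 starts and the Slc6a13 window from 3. Of the 58 carriers, 41 had a promoter in the table, and 3 of them held TGATGNAAN (Slc1a4, Slc7a7 and Slc6a21), counting a gene with several starts once if any window matched, as did 4.5% of 27025 genes with promoters. Per window the share was 3.95% of 32851. Its core TGATGCAA was in Slc1a4 and Slc7a7, and in 1.03% of genes, or 0.895% of windows. The 9 letters TGACNNNGC were in 8 of the 41, among them Slc7a1, Slc6a13 and Slc38a2, and in 14% of genes, or 12.4% of windows. None of the 3 annotated starts of Slc38a4 in the table, of which the first is shown, had a match to either motif. Of the 14 carriers past the threshold with either compound, 8 had a promoter in the table, and 1 of the 8, Slc1a4, held TGATGNAAN. Slc1a5, Slc6a6, Slc7a2, Slc7a3, Slc7a5 and Slc38a3 had none there and were not searched. Bases outside the windows, such as introns, were not searched for any gene. The matches are descriptions of the letters and not evidence of binding.

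The SLC1 family holds the glutamate carriers and the neutral exchangers ASCT1 (Slc1a4) and ASCT2 (Slc1a5). Slc1a4, which moves alanine, serine, cysteine and threonine, stood at 9.13, 9.14 and 9.22 with diquat and at 9.34, 9.29 and 9.36 with paraquat, against 8.49, 8.51 and 8.32 in controls. Every treated array lay above every control array, and the rises were 1.65-fold with diquat (log2 change 0.72 ± 0.05, SE, adjusted p = 3.88e-05 in limma) and 1.85-fold with paraquat (0.89 ± 0.05, adjusted p = 1.06e-05). Its promoter is the one above with TGATGCAAC at the start.

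Slc1a5, the main glutamine exchanger of many dividing cells, read 9.26, 9.29 and 9.52 with diquat and 9.43, 9.43 and 9.44 with paraquat, against 9.17, 9.13 and 9.12 in controls. Both treated groups lay above the controls without overlap, and diquat replicate 3 was the highest of all arrays. The rise passed with paraquat (1.23-fold, log2 change 0.29 ± 0.06, SE, adjusted p = 0.0221 in limma), while the diquat change of 0.22 ± 0.06 had an adjusted p of 0.0635. The paraquat call was lost without any 1 of the control or paraquat arrays, and the gene's second feature changed by 0.16. The other 5 members, Slc1a1, Slc1a2, Slc1a3, Slc1a6 and Slc1a7, carry glutamate or aspartate, lay between 5.29 and 6.16, and changed by between -0.16 and 0.01 with diquat and by between -0.04 and 0.03 with paraquat, with 0 past the threshold.

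The cationic carriers of the SLC7 family import arginine, lysine and ornithine. Slc7a1 (CAT1), the widely expressed member and a known ATF4 target, read 10.22, 10.22 and 10.31 with diquat and 10.19, 10.31 and 10.32 with paraquat, against 9.54, 9.59 and 9.47 in controls. The gap between treated and control arrays was several times the spread within any group. Slc7a1 rose 1.64-fold with diquat (log2 change 0.72 ± 0.05, SE, adjusted p = 2.72e-05 in limma) and 1.67-fold with paraquat (0.74 ± 0.05, adjusted p = 2.17e-05).

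Slc7a2 (CAT2), whose liver isoform has a low affinity for arginine, read 8.91, 8.87 and 9.05 with diquat and 8.84, 8.74 and 8.63 with paraquat, against 8.66 in all 3 controls. The diquat arrays lay above the controls, whereas the paraquat arrays fell on both sides of them. The diquat rise of 1.22-fold passed (log2 change 0.28 ± 0.06, SE, adjusted p = 0.0194 in limma) and was lost without control replicate 1, 2 or 3. With paraquat the change was 0.08 ± 0.06 (adjusted p = 0.671). The direct difference, paraquat minus diquat, was -0.21 with a 95% interval from -0.34 to -0.07 and an adjusted p of 0.356, so the compounds were not shown to differ.

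Slc7a3 (CAT3), best known from brain, lay below the median level of all genes and still separated all 3 groups. Its values were 5.90, 5.94 and 5.94 with diquat and 6.10, 6.17 and 6.15 with paraquat, against 5.64, 5.71 and 5.64 in controls. It rose 1.20-fold with diquat (log2 change 0.26 ± 0.04, SE, adjusted p = 0.00222 in limma) and 1.39-fold with paraquat (0.48 ± 0.04, adjusted p = 6.1e-05). Paraquat minus diquat was 0.21 with a 95% interval from 0.13 to 0.30 and an adjusted p of 0.248, the lowest of the 58 in that comparison. At this level signal and background cannot be told apart, so the folds are those of the deposited values only. Of the cationic members above the median level, Slc7a1 passed with both compounds and Slc7a2 with diquat.

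Slc7a5 (LAT1) exchanges glutamine for leucine and other large neutral amino acids and needs the heavy chain of Slc3a2. It read 10.66, 10.69 and 10.81 with diquat and 10.76, 10.69 and 10.72 with paraquat, against 10.22, 10.27 and 10.26 in controls. No treated array reached down to the controls, and the gene rose 1.39-fold with each compound (log2 change 0.47 ± 0.04, SE, in both, adjusted p = 0.000217 with diquat and 0.00027 with paraquat in limma). Slc3a2 itself averaged 11.55 ± 0.10 with diquat and 11.56 ± 0.02 with paraquat, against 11.27 ± 0.07 in controls (SD, n = 3 each). The heavy chain rose 1.21-fold and 1.22-fold (adjusted p = 0.0128 and 0.0131 in limma).

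The other light chains that pair with a heavy chain did not pass. Slc7a7 (y+LAT1), with the response element letters at its start, averaged 8.99 ± 0.06 with diquat and 9.06 ± 0.11 with paraquat, against 8.89 ± 0.05 in controls (SD, n = 3 each). Its log2 changes were 0.10 and 0.17 with adjusted p of 0.332 and 0.148 in limma, although both treated groups lay above the controls without overlap. Slc7a6 (y+LAT2) changed by 0.04 with diquat and 0.11 with paraquat. Slc7a8, Slc7a9 and Slc7a10 are the light chains LAT2, b0,+AT and Asc-1. Together with Slc7a4 and Slc7a12 to Slc7a15, these members and the pair before them changed by between -0.11 and 0.10 with diquat and by between -0.08 and 0.17 with paraquat, 10 genes with 0 past the threshold.

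**Figure D3:**
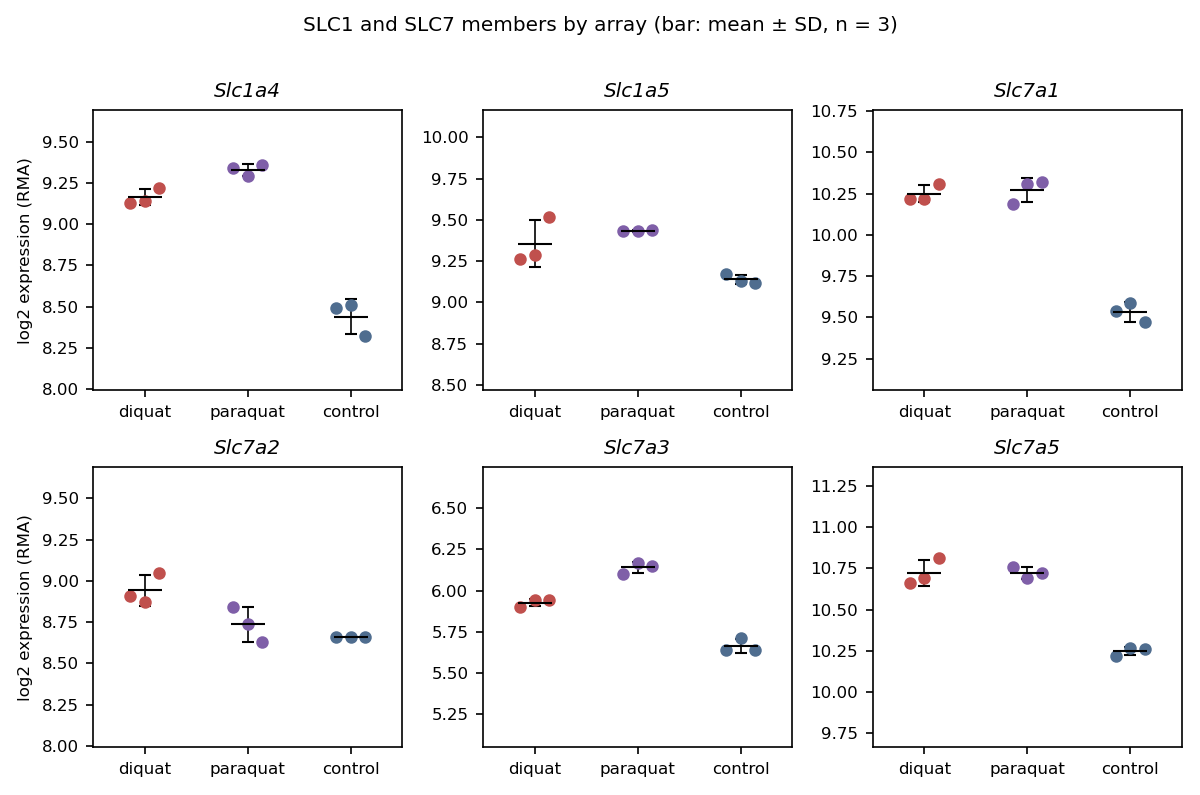
Log2 expression (y axis) of 6 SLC1 and SLC7 carriers on each array of the diquat, paraquat and control groups (x axis), with the mean and SD of 3 arrays as bars. All panels span the same range, and the treated arrays of Slc1a4, Slc7a1, Slc7a3 and Slc7a5 lie above every control array.

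The SLC38 carriers are sodium-coupled and take up glutamine, alanine and other small neutral amino acids, some at the cell surface and some at lysosomes. Diquat raised 2 of its 11 members and lowered 3, beside 4.13% and 2.89% of all genes, and paraquat raised 1 and lowered 1, beside 2.33% and 2.24%. Of the 5 diquat calls, only that of Slc38a4 was kept without each single array in turn. Slc38a4 (SNAT4), a liver carrier of neutral and cationic amino acids from an imprinted gene, read 7.77, 7.72 and 7.95 with diquat and 8.02, 7.95 and 7.86 with paraquat, against 9.08, 9.09 and 8.98 in controls. It fell 2.36-fold with diquat (log2 change -1.24 ± 0.06, SE, adjusted p = 4.32e-06 in limma) and 2.15-fold with paraquat (-1.11 ± 0.06, adjusted p = 9e-06). No other carrier changed by 1 or more on the log2 scale.

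Slc38a2 (SNAT2), the system A carrier that amino acid starvation induces, read 11.59, 11.54 and 11.65 with diquat and 11.61, 11.54 and 11.62 with paraquat, against 11.45, 11.45 and 11.37 in controls. Treated and control arrays did not overlap, yet the changes were small. The log2 change of 0.17 ± 0.04 (SE) passed with diquat (adjusted p = 0.0421 in limma), and the same size with paraquat did not (0.17 ± 0.04, adjusted p = 0.0598). The diquat call was lost without control replicate 1, 2 or 3, diquat replicate 1 or 3, or paraquat replicate 1 or 3, and the paraquat change passed without diquat replicate 3.

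Slc38a1, Slc38a2 and Slc38a4 are consecutive protein-coding genes on chromosome 15 in the RefSeq gene table. Slc38a1 (SNAT1), next to Slc38a2, averaged 10.13 ± 0.08 with diquat and 10.14 ± 0.02 with paraquat, against 10.03 ± 0.05 in controls (SD, n = 3 each). It changed by 0.10 with each compound (adjusted p = 0.244 and 0.328 in limma), and Amigo2, on the far side of Slc38a4, by -0.11 and -0.01 (adjusted p = 0.285 and 0.985). The fall of Slc38a4 was therefore not accompanied by a called fall in either flanking gene.

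Slc38a7 (SNAT7), which exports glutamine from lysosomes, read 8.57, 8.53 and 8.68 with diquat and 8.59, 8.69 and 8.76 with paraquat, against 8.41, 8.35 and 8.25 in controls. It rose 1.19-fold with diquat (log2 change 0.26 ± 0.06, SE, adjusted p = 0.0299 in limma) and 1.27-fold with paraquat (0.34 ± 0.06, adjusted p = 0.00917). All treated arrays lay above all controls. The diquat call was lost without control replicate 2 or 3, diquat replicate 1 or 3, or paraquat replicate 2.

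Slc38a3 (SNAT3), the system N carrier through which hepatocytes take up and release glutamine, read 9.85, 10.01 and 9.94 with diquat and 10.18, 9.96 and 9.99 with paraquat, against 10.21, 10.19 and 10.12 in controls. Diquat arrays were below all controls, while paraquat replicate 1 lay among them. The diquat fall of 1.18-fold passed narrowly (log2 change -0.24 ± 0.06, SE, adjusted p = 0.049 in limma), and the paraquat change was -0.13 ± 0.06 (adjusted p = 0.383). That diquat call was lost without any 1 control array, diquat replicate 1 or 3, or paraquat replicate 2 or 3.

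Slc38a10 read 8.94, 8.86 and 8.88 with diquat and 8.94, 8.92 and 8.94 with paraquat, against 9.03, 9.08 and 9.02 in controls. Controls were highest throughout, and the fall of 1.11-fold passed with diquat (log2 change -0.15 ± 0.04, SE, adjusted p = 0.0335 in limma) but not with paraquat (-0.11 ± 0.04, adjusted p = 0.146). The diquat call was lost without any 1 control array, diquat replicate 2 or 3, or paraquat replicate 1 or 3, and after centring each array on its median. The second feature of Slc38a10 changed by -0.07 with diquat. The remaining members, Slc38a5, Slc38a6, Slc38a8, Slc38a9 and Slc38a11 with Slc38a1, gave 0 calls and changes between -0.06 and 0.15 with diquat and between -0.04 and 0.10 with paraquat. Slc38a9, the lysosomal arginine sensor that signals to mTORC1, changed by 0.00 and -0.04.

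Some SLC36 carriers couple small amino acids to protons, partly at lysosomes. Slc36a4 (PAT4) read 10.79, 10.93 and 11.06 with diquat and 10.77, 10.82 and 10.69 with paraquat, against 10.63, 10.58 and 10.69 in controls. Diquat arrays lay above the controls and paraquat replicate 3 equalled the highest control. The 1.23-fold rise passed with diquat (log2 change 0.29 ± 0.07, SE, adjusted p = 0.0254 in limma), and the paraquat change was 0.13 ± 0.07 (adjusted p = 0.428). The features of this gene disagreed: the second one read 8.82, 8.58 and 8.86 with diquat and 8.66, 8.48 and 8.57 with paraquat, against 8.80, 8.75 and 8.74 in controls, a change of -0.01 and -0.19. The diquat call was also lost without control replicate 1 or 2 or diquat replicate 2 or 3. Slc36a1, Slc36a2 and Slc36a3 changed by between -0.08 and -0.07 with diquat and between -0.09 and 0.07 with paraquat, with 0 past the threshold.

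Of 19 SLC6 carriers, which use sodium and chloride, 0 rose past the threshold with either compound. That is near the share of all genes higher, 4.13% with diquat and 2.33% with paraquat. In this family 1 fell with diquat and 2 with paraquat, beside 2.89% and 2.24% of all genes. Slc6a13 (GAT2), a liver and kidney carrier of GABA and taurine, read 7.60, 7.51 and 7.50 with diquat and 7.74, 7.54 and 7.60 with paraquat, against 8.30, 8.35 and 8.11 in controls. The lowest control exceeded the highest treated array by more than the spread within any group. Slc6a13 fell 1.64-fold with diquat (log2 change -0.72 ± 0.07, SE, adjusted p = 0.000253 in limma) and 1.54-fold with paraquat (-0.63 ± 0.07, adjusted p = 0.000764). Its neighbour Slc6a12, the betaine carrier BGT1, changed by -0.06 and -0.02 at a level of 6.09 (adjusted p = 0.363 and 0.91). Iqsec3, beyond Slc6a12, changed by 0.02 and 0.04. On the other side the nearest gene, Usp18, changed by 0.21 and 0.15 (adjusted p = 0.0959 and 0.331 in limma). Tuba8, 2 genes away on that side, changed by -0.34 and -0.26 (adjusted p = 0.0231 and 0.0998).

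Slc6a6 (TauT), the taurine carrier, read 10.53, 10.47 and 10.49 with diquat and 10.54, 10.44 and 10.46 with paraquat, against 10.65, 10.64 and 10.62 in controls. All treated arrays were below the controls, by a small margin. The 1.11-fold fall passed with paraquat (log2 change -0.16 ± 0.04, SE, adjusted p = 0.0447 in limma), and diquat gave -0.14 ± 0.04 (adjusted p = 0.0547). The paraquat call was lost without any 1 control array, diquat replicate 1, or paraquat replicate 2 or 3, and after centring, and the diquat change passed without paraquat replicate 1. Slc6a8, the creatine carrier, changed by -0.14 with each compound (adjusted p = 0.108 and 0.149), likewise with no overlap between treated and control arrays. The 9 SLC6 carriers of glycine, proline and other amino acids, Slc6a5, Slc6a7, Slc6a14, Slc6a15, Slc6a17 to Slc6a19, Slc6a20a and Slc6a20b, gave 0 calls, with changes between -0.13 and -0.02 with diquat and between -0.03 and 0.04 with paraquat. The monoamine carriers Slc6a2, Slc6a3 and Slc6a4, the GABA carrier Slc6a11, and Slc6a16 and Slc6a21 gave no call either.

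The SLC43 carriers let large neutral amino acids move down their gradient. Slc43a2 (LAT4) read 7.10, 7.10 and 7.19 with diquat and 7.15, 7.19 and 7.19 with paraquat, against 7.38, 7.19 and 7.22 in controls. The groups overlapped, and the changes of -0.13 ± 0.05 and -0.09 ± 0.05 (SE) did not pass (adjusted p = 0.175 and 0.53 in limma). Slc43a1 and Slc43a3 changed by between -0.08 and 0.04.

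**Figure D4:**
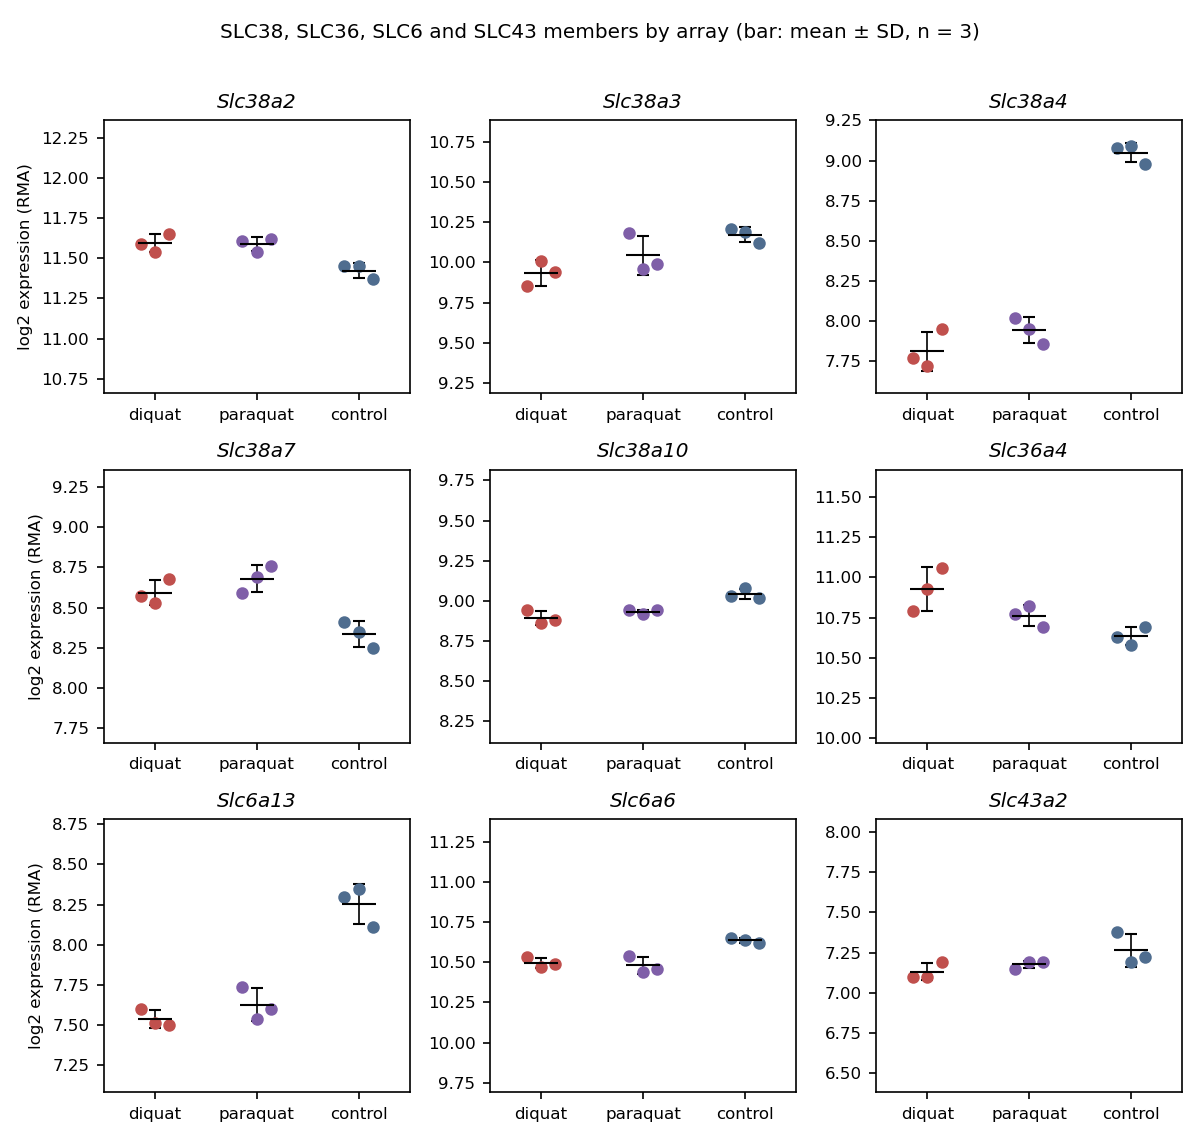
Log2 expression (y axis) of 9 SLC38, SLC36, SLC6 and SLC43 carriers on each array of the diquat, paraquat and control groups (x axis), with the mean and SD of 3 arrays as bars and the same span in every panel. Slc38a4 and Slc6a13 show the wide gaps, at 7.72 to 8.02 and 7.50 to 7.74 on treated arrays, below the controls, while Slc38a2 and Slc38a7 lie slightly above theirs.

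Some hepatocyte markers fell too. Of 9 hepatocyte markers, 4 fell and 0 rose with diquat and 3 fell and 0 rose with paraquat, beside 2.89% and 2.24% of all genes lower. With diquat these were Cps1 (log2 change -0.75), Ttr (-0.34), Apob (-0.19) and Hnf4a (-0.19). With paraquat they were Cps1 (-0.80), Fgb (-0.52) and Ttr (-0.32). Changes that did not pass were those of Fgb with diquat (-0.33), and of Apob (-0.14) and Hnf4a (-0.16) with paraquat. With neither compound did Apoa1 (-0.16 and -0.22), Alb (-0.01 with each), Asgr1 (-0.01 and -0.0033) or Serpina1a (-0.07 and 0.02) pass. The mean level over the 9 markers was 9.58 to 9.62 on diquat arrays and 9.54 to 9.69 on paraquat arrays, against 9.78 to 9.87 on control arrays. The 4 cholangiocyte markers averaged 8.78 to 8.79 on diquat arrays and 8.83 to 8.85 on paraquat arrays, against 8.77 to 8.81 on control arrays, but they moved in both directions. Sox9 passed as higher with each compound (log2 change 0.45 and 0.39), and Krt7 (-0.29) and Krt19 (-0.16) passed as lower with diquat. Of 5 macrophage markers 1, Cd68, passed, as higher with diquat (0.40). The part of the hepatocyte marker shift in the falls of Slc38a4, Slc6a13 and Slc38a3 was not tested. In bulk RNA, fewer cells of a type and less RNA per cell cannot be told apart.

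No carrier passed in the direct comparison of paraquat at 126 µM with diquat at 18 µM, where 0% of all genes were called by limma. At an unadjusted p below 0.05 there were 8 of 58 carriers and 2371 of all genes. Because the concentrations differed, the values stand side by side without a potency comparison. The intervals are not adjusted and reflect only how these arrays vary, and that variation may be technical. For Slc7a1 the difference was 0.02 with a 95% interval from -0.09 to 0.13. It was 0.00 from -0.10 to 0.10 for Slc7a5, and 0.13 from -0.01 to 0.27 for Slc38a4. Slc1a4 was 0.17 higher with paraquat with an interval from 0.05 to 0.29 and an adjusted p of 0.388. Over all 58 carriers the intervals stayed between -0.34 and 0.32.

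**Figure D5:**
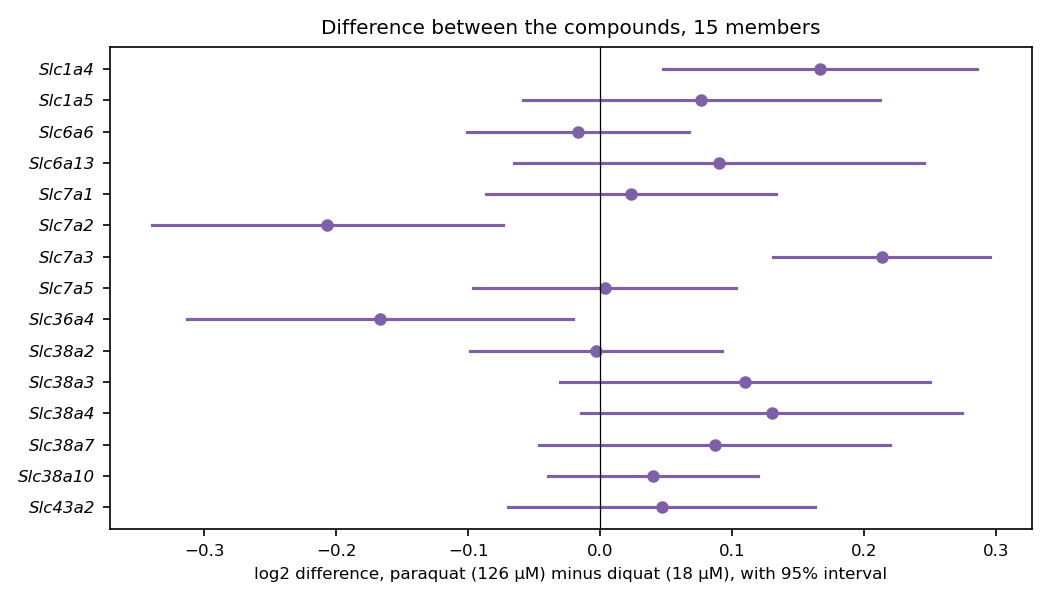
Log2 difference between paraquat at 126 µM and diquat at 18 µM (x axis) with its 95% interval for 15 carriers (rows). The intervals of Slc7a3 and Slc1a4 lie above 0 and those of Slc7a2 and Slc36a4 below it before adjustment over all genes, and none of the differences passed afterwards.

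Genes around the carriers were read from 4 lists, whose counts stand beside 7.02% of all genes called with diquat and 4.57% with paraquat. Of 24 partners and other amino acid carriers, such as the mitochondrial SLC25 proteins, 1 rose with each compound, Slc3a2, and 0 fell, a share near that of all genes. Of 17 measured genes of the GCN2 and ATF4 branch, 11 rose and 0 fell with each compound, with a median log2 change of 0.35 with diquat and 0.36 with paraquat, beside -0.02 and 0.00 for all genes. Their largest changes were in Ddit3 (0.80 and 1.09), Atf3 (0.93 and 1.15) and the pseudokinase gene Trib3 (0.82 and 1.09), with adjusted p between 6.7e-07 and 2.72e-05 in limma. This list had been seen to rise in these data and is no independent support.

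A list of 30 genes covered amino acid sensing and mTORC1 itself, with Mtor, Rptor, Mlst8 and Rheb among them. Of these 30, 4 rose and 1 fell with diquat, and 5 rose and 0 fell with paraquat. Sesn2, a leucine sensor that restrains mTORC1, rose by 0.83 with diquat and 0.70 with paraquat, Fnip1 by 0.43 and 0.45, and Fnip2 by 0.37 and 0.30 (adjusted p between 2.62e-06 and 0.026 in limma). The medians of that list, 0.01 and 0.04, lay near those of all genes. Of 10 genes for transporter trafficking, 0 rose with either compound, and 4 fell with diquat and 3 with paraquat, beside 2.89% and 2.24% of all genes. They included the arrestin-like genes Txnip (log2 change -1.14 and -0.87, adjusted p = 4.11e-05 and 0.000314) and Arrdc3 (-0.14 and -0.41, adjusted p = 0.203 and 0.00339). Nedd4l, a ubiquitin ligase that removes channels and carriers from the membrane, fell by 0.27 with diquat and by 0.35 with paraquat (adjusted p = 0.0128 and 0.00392).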

How the data were processed

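Expression was measured in TAMH cells on 9 arrays, 3 per group, with groups and replicate numbers from the sample titles. The deposited values are log2 levels that, per the submitters' processing notes, the authors made with Affymetrix Expression Console 1.1 and RMA (background correction, quantile normalization, probe summary). Settings and the build behind the annotation were not given in the sources used here. With no detection calls, a low signal and background cannot be told apart, and precision rests on how many arrays there were.

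Of 34472 features, 23521 carried 1 symbol in the platform annotation, 1814 several and 9137 none. The feature with the highest mean over 9 arrays stood for a gene, which left 22180 genes (21994 found in the RefSeq table of GRCm38.p6), and all 58 carriers were found there. Of the carriers 3 had 2 features. The written pattern for members ended in a number. Slc6a20a and Slc6a20b, which the selection rule covers, were added.

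All 9 arrays entered 1 fit with a mean for each group, using the lmFit and eBayes functions of limma 3.58.1 under R 4.3.3. There were no covariates. P-values were adjusted by Benjamini-Hochberg over the 22180 genes, with a threshold of 0.05. Errors beside changes are limma's standard errors, those beside levels standard deviations, and intervals are 95% intervals of the fit. The procedure was tested on simulated data. The labels do not say whether replicates came from separate cultures. The p-values therefore reflect only how these samples vary, and that variation may be technical.

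Described array by array were the 14 members past the threshold with either compound and each family's member with the highest mean, which added Slc43a2. Other lists name up to 3 called genes with the largest change. Members and lists were chosen with earlier results of these data known. Identity between carrier proteins was not analysed here.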

Additional observations from a re-analysis of the deposited data

How the results depend on the processing

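Under 19 alternatives the calls of Slc1a4, Slc6a13, Slc7a1, Slc7a5 and Slc38a4 with both compounds, and of Slc38a7 with paraquat, kept their direction and side of the threshold, as did those of Slc7a3 under the 18 that could include it. Leaving out 1 array gave between 6 and 12 called carriers with diquat, between 7 and 10 with paraquat and 0 between the compounds, and the other alternatives gave between 8 and 14 with diquat, between 8 and 11 with paraquat and 0 between them. With the replicate number as a block, 8 carriers passed with each compound and 0 between them. Same-numbered arrays correlated between -0.192 and 0.198 in their deviations from group means, and 2 of 9 arrays correlated best with their own number. With 3 arrays per group, these values cannot show whether same-numbered samples shared a culture or a batch. The titles and descriptions also disagree on replicates 2 and 3 of both compounds. The change of Slc36a4 turned with its other feature: its log2 change was -0.01 with diquat and -0.19 with paraquat for the second feature, and -0.0333 with paraquat for the mean of features. Calls near the threshold (Slc1a5, Slc6a6, Slc7a2, Slc38a2, Slc38a3, Slc38a10, and Slc38a7 with diquat) were lost when some single arrays were left out. With all 9 arrays kept, the replicate block also lost the calls of Slc6a6, Slc38a2, Slc38a3, Slc38a7 and Slc38a10. Testing all features lost those of Slc6a6, Slc38a2 and Slc38a3, centring those of Slc6a6, Slc38a3 and Slc38a10, and quantile normalization that of Slc38a2. A fit of only the arrays of the groups compared lost Slc6a6 with paraquat, and Slc36a4, Slc38a2, Slc38a7 and Slc38a10 with diquat. The cause was not tested. Centring each array left 2 carriers lower with each compound, and quantile normalization 6 lower with diquat and 4 with paraquat. Added after the data were seen, counting the 3 opposite-strand genes gave 13 called with diquat and 9 with paraquat, and leaving out Slc6a20a and Slc6a20b gave 12 and 9.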
